A study of Mus musculus with 20 samples.

Results

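Transcripts of 10 genes that respond to glucocorticoids or to fasting were measured in mouse kidney after loss of fumarate hydratase (Fh1), the enzyme that turns fumarate into malate in the tricarboxylic acid cycle. The 10 genes are known targets of the glucocorticoid receptor, of the FoxO factors or of the peroxisome proliferator-activated receptors (PPARs), with the receptor itself, and they were taken by symbol from a table of 24421 gene symbols. They are the receptor gene Nr3c1, its targets Fkbp5, Tsc22d3, Zbtb16, Klf9, Klf15 and Sgk1, and the fasting genes Pdk4, Angptl4 and Pnpla2. Of these, Fkbp5, Pdk4 and Pnpla2 were chosen by their measured difference between genotypes in these same libraries, so their differences between groups are given as a description with no p-value, and where a count of calls includes them nothing is read from it. The 7 others carry tests. All 10 genes passed the filter on low counts in every comparison.

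The study used 20 RNA-seq libraries of kidney, 5 in each of 4 groups, to follow the tissue as Fh1 was lost. The groups were Fh1-/- mice at day 10 and at day 5 after induction, and Fh1+/+ mice at day 10 and at day 5. Fh1-/- mice carried loxP-flanked Fh1 alleles (Fh1 fl/fl) and Fh1+/+ littermates carried none. Mice of both genotypes carried a tamoxifen-activated Cre recombinase (Cre-ERT2) under the Rosa26 promoter, were 12 weeks old, were of mixed C57BL/6 and 129/SvJ background and received 3 intraperitoneal injections of 2 mg tamoxifen. The Rosa26 promoter is active in most cell types, so recombination was not confined to the kidney or to 1 kidney cell type. Fh1+/+ mice control for tamoxifen and for Cre, and the labels do not give the sex of a mouse.

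Glucocorticoids, the steroid hormones that the adrenal cortex releases in stress and in fasting, bind the receptor in the cytoplasm. The receptor then leaves its chaperones, moves to the nucleus and binds DNA, often at sites far from the start of a gene. Low insulin frees the FoxO factors to enter the nucleus, and free fatty acids activate PPARs, so that during a fast these 3 kinds of factor act together on genes that spare glucose and release or burn fat. In the kidney, glucocorticoid targets also take part in sodium transport.

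The libraries held 16654829 to 25001294 counts (median 18547503). Fh1 averaged 349.5 ± 62.4 CPM (counts scaled to the size of the library) in Fh1-/- kidneys and 238 ± 13.2 CPM in Fh1+/+ kidneys at day 10, and 221 ± 14.7 CPM in Fh1-/- kidneys and 248.5 ± 20.1 CPM in Fh1+/+ kidneys at day 5 (SD, n = 5 each). These counts are summed over the whole gene, exons outside the deletion included, so they do not check the labels. On the first principal component, which held 42.7% of the variance, Fh1-/- day 10 replicates 1 and 3 lay at 125 and 128 and the other 18 libraries between −31.4 and 30.2. The summed level of 11 tubular injury markers was 137313 and 130576 CPM in those 2 libraries, 3196 to 14063 CPM in the other Fh1-/- libraries at day 10 and 1252 to 2536 CPM in the Fh1+/+ libraries at day 10. The 4 Y-linked transcripts Ddx3y, Eif2s3y, Kdm5d and Uty summed to 98.1 to 139 CPM in 12 libraries and to 0.306 to 1.03 CPM in 8, which were 3 of 5 Fh1-/- and 2 of 5 Fh1+/+ libraries at day 10, and 2 of 5 Fh1-/- and 1 of 5 Fh1+/+ libraries at day 5. The Fh1-/- day 10 libraries that lacked Y-linked transcripts were replicates 1, 3 and 5. Markers of proximal tubule, the main cell type of kidney cortex, summed to 9490 CPM or more in every library.

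The start regions of 5 members are printed because these are the genes on which the description turns: Fkbp5, Pdk4 and Pnpla2, chosen for their difference between genotypes, Sgk1, whose window was the only one of a member with a match to the full glucocorticoid response element, and Klf15, whose level set Fh1-/- libraries apart from each other. Each is the RefSeq window (mouse build GRCm38.p6) that runs 5′ to 3′ on the strand of the gene, with 250 bases before and 50 bases after the start of transcription, and capitals mark motif matches.
Fkbp5, chr17:28486100-28486399, minus strand: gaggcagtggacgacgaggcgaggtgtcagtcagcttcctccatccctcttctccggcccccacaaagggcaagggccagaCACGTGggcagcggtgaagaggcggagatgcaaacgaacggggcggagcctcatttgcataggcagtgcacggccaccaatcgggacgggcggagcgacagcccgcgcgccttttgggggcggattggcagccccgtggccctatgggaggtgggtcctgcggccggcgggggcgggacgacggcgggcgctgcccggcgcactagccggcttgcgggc
Sgk1, chr10:21993640-21993939, plus strand: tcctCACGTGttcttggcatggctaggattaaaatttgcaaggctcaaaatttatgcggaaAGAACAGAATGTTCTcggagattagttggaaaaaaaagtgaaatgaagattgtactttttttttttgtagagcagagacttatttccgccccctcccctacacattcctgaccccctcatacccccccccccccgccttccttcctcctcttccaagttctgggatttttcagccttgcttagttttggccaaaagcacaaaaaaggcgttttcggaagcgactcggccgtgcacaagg
Klf15, chr6:90462326-90462625, plus strand: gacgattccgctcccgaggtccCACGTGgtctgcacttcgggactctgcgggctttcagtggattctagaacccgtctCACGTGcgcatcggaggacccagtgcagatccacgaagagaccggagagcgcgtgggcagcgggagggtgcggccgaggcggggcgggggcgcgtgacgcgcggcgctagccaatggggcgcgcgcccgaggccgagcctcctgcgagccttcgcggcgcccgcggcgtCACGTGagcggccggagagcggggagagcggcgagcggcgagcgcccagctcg
Pdk4, chr6:5496229-5496528, minus strand: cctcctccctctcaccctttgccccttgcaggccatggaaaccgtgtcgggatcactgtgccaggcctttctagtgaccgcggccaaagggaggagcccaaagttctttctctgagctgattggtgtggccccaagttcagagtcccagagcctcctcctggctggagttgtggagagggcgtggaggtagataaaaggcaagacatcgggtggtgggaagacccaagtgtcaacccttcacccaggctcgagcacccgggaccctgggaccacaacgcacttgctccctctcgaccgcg
Pnpla2, chr7:141454938-141455237, plus strand: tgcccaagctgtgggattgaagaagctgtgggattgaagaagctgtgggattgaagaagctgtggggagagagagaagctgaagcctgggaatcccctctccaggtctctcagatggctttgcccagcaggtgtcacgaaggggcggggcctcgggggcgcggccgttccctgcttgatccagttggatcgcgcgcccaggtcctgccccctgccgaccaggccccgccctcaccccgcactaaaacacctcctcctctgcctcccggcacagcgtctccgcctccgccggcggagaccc
The motifs, searched on both strands, were the palindromic glucocorticoid response element (the half-sites AGAACA and TGTTCT with 3 free bases between them), the FoxO core TGTTTAC, the PPAR direct repeat (AGGTCA, 1 free base and AGGTCA again) and the E-box CACGTG, and no match overlapped another. Windows were found for 7 members, 14 windows in all, and Zbtb16, Angptl4 and Nr3c1 had no entry. The response element stood in 1 of them, a Sgk1 window, at −189 to −175 from the start, and this motif was in 3 of 32851 windows of the same length (0.00913%). The E-box, bound by circadian clock factors among others, stood in the windows of Fkbp5 (−169 to −164), Sgk1 (−246 to −241) and Klf15 (3 matches, from −228, −172 and −3), against 7.15% of all windows. The FoxO core stood in the Klf9 window (−100 to −94), against 3.65% of all windows, and the PPAR repeat, in 0.0396% of all windows, stood in none of the 14. A match describes letters in a window and does not show that a factor binds there, and the absence of a match says only that these letters are not in that window.

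In Fh1+/+ kidneys the 10 genes spanned a wide range of levels, compared per kilobase of exon in CPM per kb (mean ± SD over the 10 Fh1+/+ libraries). Pnpla2, which encodes the lipase that starts the breakdown of stored triglyceride, was highest at 71.4 ± 10.2 CPM per kb, followed by Klf15 at 39.1 ± 10.5 CPM per kb. Zbtb16, which encodes a zinc-finger repressor, was lowest at 0.650 ± 0.342 CPM per kb. Sgk1, Klf9, Tsc22d3, Angptl4, Pdk4, Nr3c1 and Fkbp5 lay in this order between 24.5 and 9.88 CPM per kb. From Klf15 down to Fkbp5 the mean ± SD of each gene overlapped that of its neighbour, so neighbours in that stretch did not differ beyond their spread. Relative to its level, the spread between Fh1+/+ libraries was smallest for Nr3c1 (11.1 ± 0.955 CPM per kb) and largest for Sgk1 (24.5 ± 14.3 CPM per kb). All 10 genes lie apart from the exons of other annotated genes (GENCODE M21, GRCm38): Fkbp5 at chr17:28399094-28517527, Pdk4 at chr6:5483351-5496309, Angptl4 at chr17:33773750-33781830, Zbtb16 at chr9:48654297-48836222 and Nr3c1 at chr18:39410545-39519421, all on the minus strand, and Pnpla2 at chr7:141455198-141460743, Klf9 at chr19:23141226-23168134, Klf15 at chr6:90462576-90475238 and Sgk1 at chr10:21882184-21999903 on the plus strand. Tsc22d3 lies on the minus strand of the X chromosome, at chrX:140539528-140600659.

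**Figure D1:**
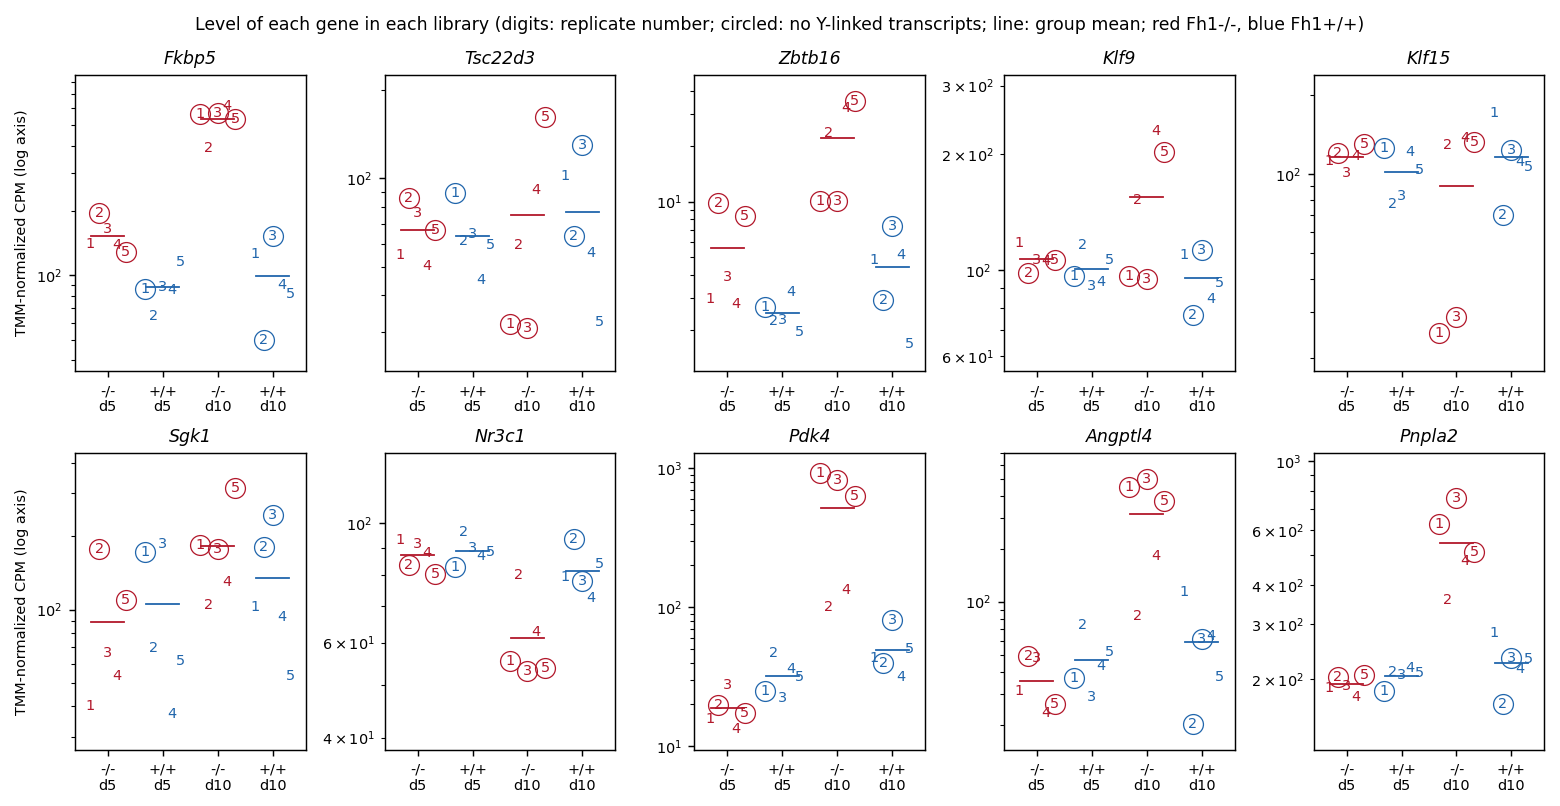
TMM-normalized CPM of each of the 10 genes in each library (log axis), by group, with each library drawn as its replicate number and circled digits for the libraries that lacked Y-linked transcripts. Fkbp5, Zbtb16, Pdk4 and Pnpla2 stood higher in all 5 Fh1-/- libraries at day 10 than in any Fh1+/+ library at day 10 (as did 4.42% of all genes tested), and Pdk4 and Angptl4 were highest in Fh1-/- replicates 1, 3 and 5.

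The first question was how the genes stood in Fh1-/- kidneys at day 10, the later time after the loss of Fh1. Fkbp5, Pdk4 and Pnpla2 were at 5.32, 10.5 and 2.39 times their Fh1+/+ level, and Zbtb16 and Angptl4 were at 4.99 and 5.31 times. The receptor transcript Nr3c1 was at 0.742 times. Tsc22d3, Klf15 and Sgk1 differed by less than the spread between libraries, and these ratios rest on log2 fold changes from edgeR's quasi-likelihood fit, whose standard errors (SE) are given with each gene. In bulk kidney, a lower level in every cell and fewer cells that hold the transcript cannot be told apart, and the same holds for a higher level.

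A gene was called where edgeR's Benjamini-Hochberg adjusted p over all genes tested was under 0.01 and the absolute log2 fold change over 0.58. At day 10 this called 1 of the 10 members, Fkbp5, against 0.0557% of the 14360 genes tested, and since Fkbp5 entered the list for its change in these libraries nothing is read from that count. None of the 7 genes with a test was called. Among these 7, at unadjusted p under 0.05, edgeR counted 3 higher (Zbtb16, Klf9 and Angptl4) and 1 lower (Nr3c1), where 15.1% and 11.9% of all genes stood, and DESeq2, at the thresholds of the call, counted 2 higher (Zbtb16 and Angptl4) and 0 lower (3.49% and 2.05% of all genes). Their median log2 fold change was 0.42, with 4 of 7 above 0, and that of all genes tested was −0.0007 with 49.9% above 0. The 1 edgeR call was lost without Fh1-/- replicate 1, 3, 4 or 5 or without Fh1+/+ replicate 1, 4 or 5 (0 members called each), and without Fh1-/- replicate 2 the count was 3 (Fkbp5, Pdk4 and Pnpla2).

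Nr3c1, which encodes the glucocorticoid receptor, was at 55.5, 80.2, 53.2, 62.7 and 53.8 CPM in replicates 1 to 5 of Fh1-/- kidneys at day 10, against 79.4, 93.5, 77.9, 72.4 and 84.0 CPM in replicates 1 to 5 of Fh1+/+ kidneys. In 4 of the 5 Fh1-/- libraries it lay under the lowest Fh1+/+ library, and replicate 2 lay inside the Fh1+/+ range. With a log2 fold change of −0.43 (SE 0.13), the difference missed the threshold by edgeR's quasi-likelihood test (adjusted p = 0.0864).

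Fkbp5 encodes a co-chaperone that holds the receptor in a form of low hormone affinity and is induced by the receptor in turn. It was at 565, 389.7, 568, 616 and 536 CPM in Fh1-/- kidneys, against 125, 49.7, 151, 89.8 and 81.5 CPM in Fh1+/+ kidneys at day 10. Every Fh1-/- library stood clear of every Fh1+/+ library, and the Fh1-/- libraries varied less among themselves in proportion (535 ± 86.1 CPM) than the Fh1+/+ libraries (99.5 ± 39.5 CPM, SD, n = 5 each). Its log2 fold change was 2.41 (SE 0.28).

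Zbtb16, a receptor target known for its strong response to glucocorticoids in several human tissues, was at 10.1, 23.6, 10.0, 32.1 and 35.0 CPM in Fh1-/- kidneys at day 10, against 4.82, 2.91, 7.40, 5.14 and 1.68 CPM in Fh1+/+ kidneys. The groups did not overlap, and Fh1-/- replicates 1 and 3 were the closest to the Fh1+/+ range. For a log2 fold change of 2.32 (SE 0.47) edgeR gave an adjusted p of 0.0379, over the threshold of 0.01, whereas DESeq2 gave 4.38e-05.

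Tsc22d3, which encodes the glucocorticoid-induced leucine zipper protein, an anti-inflammatory target of the receptor, was at 32.0, 59.3, 30.9, 91.6 and 161 CPM in Fh1-/- kidneys at day 10, against 102, 63.9, 129.8, 55.6 and 32.5 CPM in Fh1+/+ kidneys. The groups overlapped, with Fh1-/- replicates 1 and 3 just under the lowest Fh1+/+ library and replicate 5 above the highest. This gave a log2 fold change of −0.05 (SE 0.50, edgeR adjusted p = 0.956).

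The Krüppel-like factors Klf9 and Klf15 are transcription factors induced by glucocorticoids, and Klf15 is known for its part in amino acid breakdown and glucose production during fasting. Klf9 was at 96.4, 151, 95.0, 229 and 202 CPM in Fh1-/- kidneys, against 109, 76.7, 113, 84.1 and 92.8 CPM in Fh1+/+ kidneys at day 10. Fh1-/- replicates 2, 4 and 5 stood above the Fh1+/+ range and replicates 1 and 3 inside it, for a log2 fold change of 0.68 (SE 0.25, edgeR adjusted p = 0.127). Klf15 was at 24.9, 129, 28.6, 137 and 132 CPM in Fh1-/- kidneys, against 170.5, 69.7, 124, 111 and 106 CPM in Fh1+/+ kidneys. Here Fh1-/- replicates 1 and 3 lay under every Fh1+/+ library while replicates 2, 4 and 5 lay inside the Fh1+/+ range, and the log2 fold change of −0.38 (SE 0.48) did not pass (edgeR adjusted p = 0.623).

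Sgk1, which encodes a kinase that keeps the epithelial sodium channel at the cell surface and is induced by glucocorticoids and by aldosterone, was at 184, 104, 177, 129.8 and 314 CPM in Fh1-/- kidneys at day 10, against 102, 181, 243, 93.5 and 53.4 CPM in Fh1+/+ kidneys. Fh1-/- replicate 5 lay above the Fh1+/+ range and the other 4 inside it. Its log2 fold change was 0.42 (SE 0.41, edgeR adjusted p = 0.517).

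Pdk4, the pyruvate dehydrogenase kinase that shuts pyruvate out of the tricarboxylic acid cycle in fasting, was at 921, 100.2, 818, 132 and 626 CPM in Fh1-/- kidneys, against 43.1, 39.9, 80.3, 31.7 and 49.7 CPM in Fh1+/+ kidneys at day 10. All 5 Fh1-/- libraries stood above the Fh1+/+ range, but in 2 steps, with replicates 2 and 4 far under replicates 1, 3 and 5. The log2 fold change was 3.40 (SE 0.63), the largest of the 10 members and the one with the largest SE.

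Angptl4 encodes a secreted inhibitor of lipoprotein lipase and is a target of PPARs and of the glucocorticoid receptor. It was at 448, 82.4, 501, 181 and 372 CPM in Fh1-/- kidneys, against 113, 20.2, 61.0, 63.8 and 37.3 CPM in Fh1+/+ kidneys at day 10. The same 3 Fh1-/- libraries were highest, replicate 4 lay above the Fh1+/+ range as well and replicate 2 inside it. For a log2 fold change of 2.41 (SE 0.55), edgeR gave an adjusted p of 0.0484, over the threshold, and DESeq2 gave 0.000172.

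Pnpla2, a FoxO target that encodes adipose triglyceride lipase, was at 626, 358, 758, 477 and 510.1 CPM in Fh1-/- kidneys, against 282, 167, 233, 216 and 231 CPM in Fh1+/+ kidneys at day 10. The groups did not overlap, and Fh1-/- replicate 2 was again the lowest of its group. The log2 fold change was 1.26 (SE 0.21). Of the 10 members, 4 (Fkbp5, Zbtb16, Pdk4 and Pnpla2) were higher in all 5 Fh1-/- libraries than in any Fh1+/+ library, a pattern shown by 4.42% of all genes tested, and 3 of these 4 were chosen for their change.

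**Figure D2:**
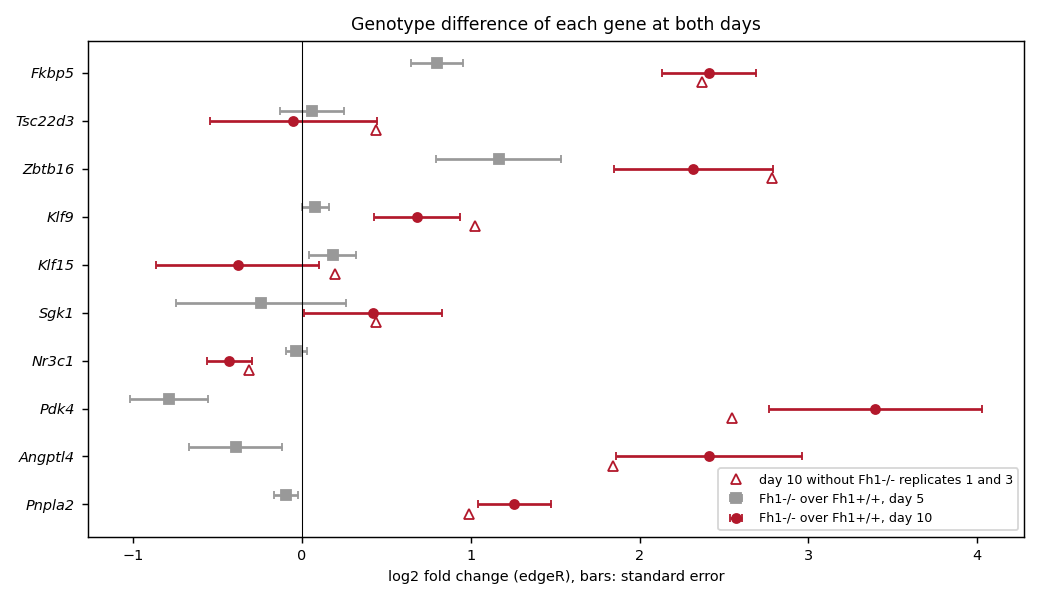
Log2 fold change of Fh1-/- over Fh1+/+ kidneys for each gene with its SE, at day 10 (circles), at day 5 (squares) and at day 10 without Fh1-/- replicates 1 and 3 (open triangles). Pdk4 was at 3.40 at day 10, 2.55 without those replicates and −0.79 at day 5, and Fkbp5 was at 2.41, 2.37 and 0.80.

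The 5 Fh1-/- libraries at day 10 did not hold the 10 genes at the same levels relative to each other. Fkbp5 was high in all 5 libraries. Pdk4 and Angptl4 were highest in replicates 1, 3 and 5, whereas Zbtb16 and Klf9 were higher in replicates 2, 4 and 5 than in replicates 1 and 3, and Klf15 and Tsc22d3 were lowest in replicates 1 and 3. Replicates 1 and 3 were the libraries apart on the first principal component and with the highest injury markers, and the part of tubular injury in these values was not tested. Without both, at day 10, the log2 fold change was 2.37 for Fkbp5, 2.55 for Pdk4, 0.99 for Pnpla2, 2.78 for Zbtb16 (edgeR adjusted p = 0.0387), 1.02 for Klf9 (0.0413) and 1.84 for Angptl4 (0.139). Klf15 and Tsc22d3 then stood at 0.19 and 0.44, on the other side of 0.

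**Figure D3:**
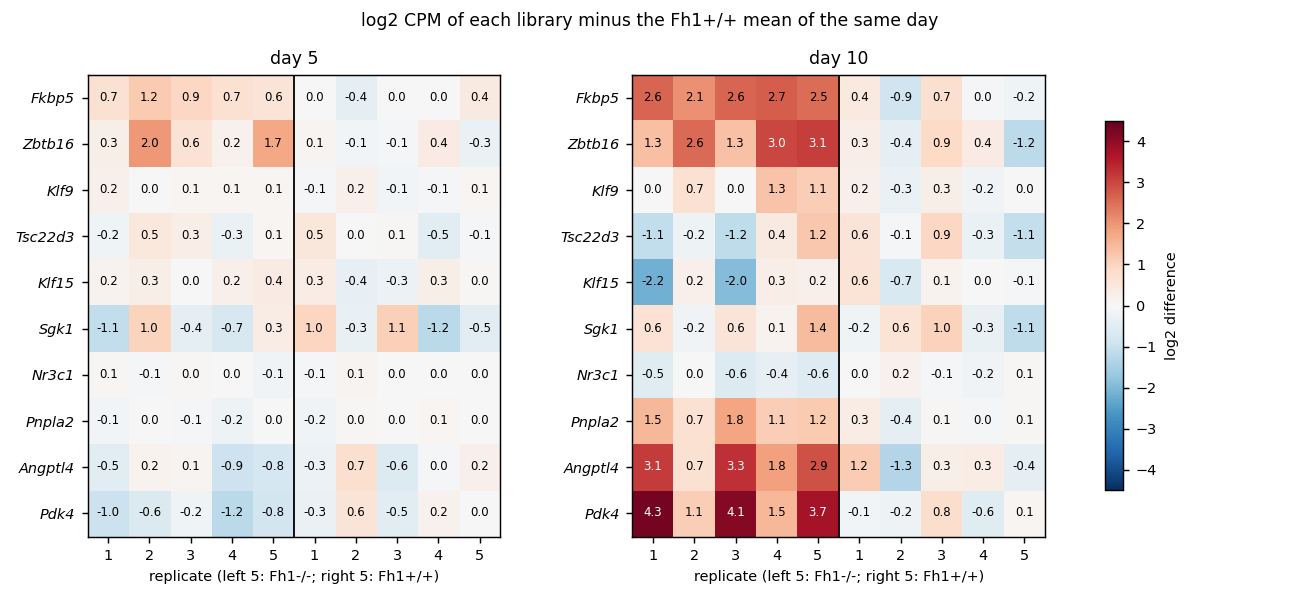
Log2 CPM of each gene in each library minus the mean of the Fh1+/+ libraries of the same day, as a heatmap with the value in each cell, the 5 Fh1-/- libraries left of the 5 Fh1+/+ libraries within each day. At day 10 Fkbp5 was high across all 5 libraries, while Klf15 was low in replicates 1 and 3 alone and Pdk4 was highest in replicates 1, 3 and 5.

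Replicates 1, 3 and 5 were also the Fh1-/- libraries at day 10 that lacked Y-linked transcripts. Pdk4 was at 626 to 921 CPM in these 3 libraries, against 100.2 and 132 CPM in the 2 Fh1-/- libraries that held Y-linked transcripts, and Angptl4 was at 372 to 501 CPM, against 82.4 and 181 CPM. In fits within each class, chosen after the data were seen, the log2 fold change of Fh1-/- over Fh1+/+ for Pdk4 was 1.48 among libraries with Y-linked transcripts (2 against 3 libraries) and 3.71 among libraries lacking them (3 against 2). Fkbp5 was at 2.34 and 2.46, and Pnpla2 at 0.77 and 1.65. For Angptl4 the values were 0.88 (edgeR adjusted p = 0.347) and 3.43 (0.219), and for Zbtb16 2.83 (0.0709) and 1.83 (0.257). Angptl4 and Zbtb16 were above 0 in both classes, whereas Tsc22d3 was at 0.24 and −0.38 and Klf15 at 0.04 and −0.65. No member was called in either class, and at 2 or 3 libraries a group the difference between the classes was not tested.

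In Fh1+/+ kidneys, Pdk4 was at 25.0 to 80.3 CPM in the 3 libraries that lacked Y-linked transcripts and at 22.1 to 49.7 CPM in the 7 that held them, so the classes overlapped where Fh1 was intact. Sgk1 was at 172 to 243 CPM (median 181) in the 3 Fh1+/+ libraries lacking Y-linked transcripts and at 37.2 to 186 CPM (median 69.3) in the other 7. In Fh1-/- kidneys of both days Sgk1 was at 109 to 314 CPM (median 177) in the 5 libraries lacking them and at 40.1 to 129.8 CPM (median 66.3) in the 5 that held them. The distal nephron and collecting duct markers come only in part from the segments where Sgk1 acts on the sodium channel. They summed to 10842 to 14259 CPM in the 3 Fh1+/+ libraries lacking Y-linked transcripts and 7428 to 10503 CPM in the 7 others. In Fh1-/- kidneys of both days the sums were 8895 to 20122 CPM in the 5 libraries lacking them and 7774 to 12044 CPM in the 5 others. The part of sex or of nephron segments in any of these values was not tested.

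Markers of cell types also took different ranges in the day 10 groups. The 10 proximal tubule markers summed to 9490 to 29439 CPM in Fh1-/- kidneys and 26843 to 67280 CPM in Fh1+/+ kidneys, with all 10 detected. In Fh1+/+ kidneys of both days that sum was 26843 to 32084 CPM in the 3 libraries lacking Y-linked transcripts and 45930 to 71027 CPM in the 7 others. The list held Lrp2, Cubn, Slc34a1, Slc5a2, Slc5a12, Slc22a6, Slc22a8, Slc7a13, Kap and Miox. A sum of CPM follows its most abundant genes and does not count cells, and the part of sex in this split was not tested. The 9 distal nephron and collecting duct markers summed to 8895 to 20122 CPM in Fh1-/- kidneys and 8011 to 14259 CPM in Fh1+/+ kidneys at day 10. Gene by gene, most of them went the other way, with 3 of 9 above 0 and a median log2 fold change of −0.59. At edgeR's unadjusted p under 0.05, 0 were higher and 2 lower (15.1% and 11.9% of all genes). The highest distal sum of each genotype was in Fh1-/- replicate 5 and Fh1+/+ replicate 3. These also held the highest Sgk1 (314 and 243 CPM) and Tsc22d3 (161 and 129.8 CPM) of their groups. The lowest Fh1+/+ sum was in replicate 5, with the lowest Sgk1 and Tsc22d3 of its group. In Fh1-/- kidneys the lowest sums were in replicates 1 and 3 (8895 and 9171 CPM). Their Tsc22d3 was the lowest of the group (32.0 and 30.9 CPM). Their Sgk1 (184 and 177 CPM) was above that of replicates 2 and 4 (104 and 129.8 CPM), whose sums were 11318 and 12044 CPM. In Fh1-/- kidneys at day 5 the highest distal sums were in replicates 2 and 5 (12953 and 11952 CPM). These replicates also held the highest Sgk1 of that group (177 and 109 CPM). The part of nephron segments in these values was not tested.

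The 9 fat cell markers, of interest because fat cells hold much Pnpla2, Pdk4 and Angptl4, summed to 75.9 to 696 CPM in Fh1-/- kidneys and 83.8 to 383 CPM in Fh1+/+ kidneys. Fh1-/- replicate 2, with the highest sum of fat cell markers, had the lowest Pdk4, Angptl4 and Pnpla2 of its group. The 12 leukocyte markers summed to 88.6 to 207 CPM in Fh1-/- kidneys and 182 to 297 CPM in Fh1+/+ kidneys, and the 8 endothelial markers to 122 to 603 CPM and 486 to 842 CPM. The 6 hepatocyte markers summed to 645 to 5503 CPM in Fh1-/- kidneys and 212 to 1918 CPM in Fh1+/+ kidneys. Gene by gene, 2 of 6 were above 0 at day 10, with a median log2 fold change of −0.06. At edgeR's unadjusted p under 0.05, 1 was higher and 2 lower (15.1% and 11.9% of all genes). In Fh1+/+ kidneys of both days their sum was 212 to 351 CPM in the 3 libraries lacking Y-linked transcripts and 907 to 1918 CPM in the 7 others. The 8 adrenal markers summed to 27.8 CPM in Fh1-/- day 10 replicate 2 and to 11.2 CPM or lower in every other library. Th and Dbh reached 7.71 and 15.9 CPM in that replicate 2, and Cyp11b2 had 0 reads throughout. The part of these cell types or of sex in the members' values was not tested.

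The second question was which genes already differed at day 5, the earlier time. The filter kept 14404 genes, and none of the 10 members was called by edgeR (0.0347% of genes), against 1 by DESeq2 (Fkbp5, 0.215% of genes), from which nothing is read. Among the 7 genes with a test, 1 (Zbtb16) was higher and 0 lower at unadjusted p under 0.05 (2.42% and 2.37% of genes), 0 were called by DESeq2, and the median log2 fold change was 0.06. Fkbp5 was at 140.0, 195, 163, 139 and 128 CPM in Fh1-/- kidneys, against 86.1, 64.4, 87.7, 85.6 and 115 CPM in Fh1+/+ kidneys at day 5. It was the 1 member whose groups did not overlap, higher in all 5 Fh1-/- libraries, as were 0.521% of all genes, and its log2 fold change was 0.80 (SE 0.15).

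Pdk4 and Pnpla2, high in Fh1-/- kidneys at day 10, were not high there at day 5. Pdk4 was at 15.7, 19.9, 27.5, 13.2 and 17.5 CPM in Fh1-/- kidneys, against 25.0, 47.0, 22.1, 35.9 and 31.4 CPM in Fh1+/+ kidneys at day 5. Here 4 of the 5 Fh1-/- libraries lay under the lowest Fh1+/+ library, the opposite side to day 10, with a log2 fold change of −0.79 (SE 0.23). Pnpla2 was at 188, 203, 191, 175 and 206 CPM in Fh1-/- kidneys, against 183, 211, 206, 218 and 209 CPM in Fh1+/+ kidneys, and overlapped (−0.10, SE 0.07). The 9 fat cell markers summed to 55.8 to 135 CPM (median 70.3) in Fh1-/- kidneys and 64.9 to 309 CPM (median 196) in Fh1+/+ kidneys at day 5, beside these values of Pdk4, and their part in them was not tested.

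Zbtb16 was at 2.97, 9.84, 3.90, 2.78 and 8.39 CPM in Fh1-/- kidneys at day 5, against 2.68, 2.26, 2.27, 3.22 and 1.97 CPM in Fh1+/+ kidneys. Replicates 2 and 5, the Fh1-/- libraries of that day that lacked Y-linked transcripts, stood above the rest. The same 2 libraries had the highest distal nephron and collecting duct marker sums of their group (12953 and 11952 CPM, against 7774 to 10255 CPM). They also had the lowest proximal tubule marker sums (32627 and 35479 CPM, against 57624 to 63406 CPM). The part of these cell types or of sex was not tested. The log2 fold change was 1.17 (SE 0.37) and did not pass (edgeR adjusted p = 0.805). Angptl4 was at 31.1, 49.2, 48.1, 23.4 and 26.1 CPM in Fh1-/- kidneys, against 37.0, 73.2, 28.6, 42.9 and 51.4 CPM in Fh1+/+ kidneys, a log2 fold change of −0.39 (SE 0.28). The groups overlapped.

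The receptor and its other targets lay close to Fh1+/+ kidneys at day 5. Nr3c1 averaged 87.1 ± 5.23 CPM in Fh1-/- kidneys and 88.8 ± 4.95 CPM in Fh1+/+ kidneys at day 5 (SD, n = 5 each), with −0.03 as its log2 fold change (SE 0.06). Klf9 averaged 107 ± 6.83 CPM and 101 ± 10.4 CPM in the same groups (0.08, SE 0.08), its libraries at day 5 spanning 91.3 to 118 CPM over both genotypes. Klf15 averaged 116 ± 10.5 CPM in Fh1-/- kidneys and 102 ± 21.9 CPM in Fh1+/+ kidneys (0.18, SE 0.14), and all 10 libraries of that day lay at 77.1 to 129.7 CPM. Tsc22d3 averaged 66.8 ± 14.8 CPM in Fh1-/- kidneys and 63.9 ± 15.9 CPM in Fh1+/+ kidneys (0.06, SE 0.19). Sgk1 averaged 89.1 ± 55.4 CPM in Fh1-/- kidneys and 105 ± 68.4 CPM in Fh1+/+ kidneys (−0.24, SE 0.50). Each of these 5 genes had overlapping groups, and edgeR's adjusted p over all genes was 1 for all 5 and for Angptl4.

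The third question was how far the genes moved between the days within each genotype. In Fh1-/- kidneys, 14235 genes were tested and edgeR called 4 members higher at day 10 than at day 5 (0.337% of all genes were called higher). These were Fkbp5, Pdk4, Pnpla2 and, among the genes with a test, Angptl4. Angptl4 rose by 3.14 on the log2 scale, to 8.79 times its day 5 level (SE 0.47, edgeR adjusted p = 0.00973), and was higher in all 5 libraries at day 10 than in any at day 5. Its adjusted p was close to the threshold, and leaving out 1 library at a time moved it to between 0.000852 and 0.0351, with a log2 fold change of 2.91 to 3.38. The call remained only without day 10 replicate 2. Without day 10 replicates 1 and 3 together it was 2.55 (0.0174), and within libraries that held and lacked Y-linked transcripts it was 1.93 (0.0238) and 3.54 (0.0655).

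Fkbp5, Pdk4 and Pnpla2 stood at log2 fold changes of 1.79 (SE 0.16), 4.78 (SE 0.66) and 1.48 (SE 0.19) between the days in Fh1-/- kidneys. For Pdk4 this was 27.4 times the day 5 level, from groups at 100.2 to 921 CPM at day 10 and 13.2 to 27.5 CPM at day 5. Zbtb16 was at 1.97 (SE 0.48, edgeR adjusted p = 0.0320) with no overlap between the days, and within the libraries that held Y-linked transcripts it was called, at 3.10 (0.00165), while within those that lacked them it was at 1.01 (0.345). Nr3c1 was lower in all 5 libraries at day 10 than in any at day 5, as were 5.68% of all genes, at −0.53 (SE 0.12, adjusted p = 0.0285). Of the 10 members, 5 (Fkbp5, Zbtb16, Pdk4, Angptl4 and Pnpla2) were higher in every day 10 library than in any day 5 library, as were 6.83% of all genes, and 3 of the 5 were chosen for their level in these same day 10 libraries. Sgk1 was at 1.02 (SE 0.42, 0.124), Klf9 at 0.51 (SE 0.24, 0.163), Klf15 at −0.38 (SE 0.45, 0.583) and Tsc22d3 at 0.15 (SE 0.42, 0.830), each with its edgeR adjusted p. The count of 4 was 0 without day 10 replicate 1 or without day 5 replicate 1, 3, 4 or 5, was 1 without day 10 replicate 3, 4 or 5 or day 5 replicate 2, and was 5 without day 10 replicate 2.

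In Fh1+/+ kidneys no member was called between the days. EdgeR called 0 of 10 members and 0% of the 14501 genes tested, and DESeq2 called 0 as well. Among the 7 genes with a test, edgeR counted 1 higher (Zbtb16) and 0 lower at unadjusted p under 0.05 (1.99% and 1.98% of genes). None of the 10 had groups that did not overlap, against 0.262% of genes higher and 0.352% lower. The largest log2 fold change was that of Zbtb16, at 0.82 (SE 0.34, edgeR adjusted p = 0.949), followed by Pdk4 at 0.60 (SE 0.26) and Sgk1 at 0.36 (SE 0.49, 0.955). Fkbp5 was at 0.18 (SE 0.26). For Angptl4, Tsc22d3, Klf15 and Nr3c1 the values were 0.34 (SE 0.40), 0.27 (SE 0.32), 0.19 (SE 0.22) and −0.12 (SE 0.08), with adjusted p from 0.949 to 0.950, and for Pnpla2 and Klf9 0.14 (SE 0.12) and −0.08 (SE 0.12).

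Whether the genotype difference itself differed between the days was asked with an interaction term over all 20 libraries and 14934 genes, which shares its libraries with the comparisons above. EdgeR called 0 of the 10 members (0.0335% of genes), against 4 by DESeq2 (Fkbp5, Pdk4, Pnpla2 and Angptl4, with 1.82% of all genes called). Of those 4, 3 were chosen by their day 10 difference, and Angptl4 was the 1 DESeq2 call among the 7 others. At unadjusted p under 0.05 edgeR counted 2 of these 7 higher (Angptl4 and Klf9) and 1 lower (Nr3c1), where 11.8% and 8.40% of all genes stood. The difference was 2.80 for Angptl4 (SE 0.64, edgeR adjusted p = 0.0416), 1.15 for Zbtb16 (SE 0.61, 0.297), 0.59 for Klf9 (SE 0.28, 0.236) and −0.41 for Nr3c1 (SE 0.15, 0.142). Angptl4 came closest to the threshold among the genes with a test and did not pass it. Sgk1 was at 0.66 (SE 0.69, 0.603), Klf15 at −0.57 (SE 0.53, 0.558) and Tsc22d3 at −0.12 (SE 0.56, 0.927). For the genes given without a test the difference was 4.18 for Pdk4 (SE 0.69), 1.61 for Fkbp5 (SE 0.32) and 1.35 for Pnpla2 (SE 0.23).

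Other genes of the same pathways were then read from 8 lists that do not hold the members. EdgeR called none of their genes between genotypes at day 10 or at day 5, so they are described by counts and medians beside those of all genes, and they share their libraries with the members. The lists were chosen with earlier results of these data known, so their counts are a description and not an independent test of a pathway. Over all genes tested at day 10, 15.1% were higher and 11.9% lower at unadjusted p under 0.05, and DESeq2 called 3.49% higher and 2.05% lower. Of 18 tested targets of the glucocorticoid receptor, 15 were above 0 at day 10, with a median log2 fold change of 1.13, 13 higher and 0 lower at unadjusted p under 0.05, and 7 higher by DESeq2. The median was 0.96 without Fh1-/- replicates 1 and 3, and 0.04 at day 5. Mt1 and Mt2, which encode the metal-binding metallothioneins, were at 3.48 and 4.09 (edgeR adjusted p = 0.0567 and 0.0559), Rasd1, which encodes a dexamethasone-induced Ras protein, at 3.37 (0.0442), Errfi1, which encodes an inhibitor of the EGF receptor, at 1.14 (0.0415) and the clock gene Per1 at 0.89 (0.208). Rasd1 was at 10.7 to 224 CPM in Fh1-/- kidneys and 5.40 to 11.7 CPM in Fh1+/+ kidneys at day 10. Without Fh1-/- replicates 1 and 3 Mt1 was at 1.11, Mt2 at 1.29 and Rasd1 at 1.60, and Mt1 was at 2311 and 2723 CPM in those 2 libraries and 141 to 340.4 CPM in the other 3 Fh1-/- libraries. The level of Errfi1 averaged 873 ± 194 CPM in Fh1-/- kidneys and 391 ± 129 CPM in Fh1+/+ kidneys (SD, n = 5 each).

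The 12 genes that act with the receptor lay near or below 0, with 4 above it and a median of −0.15 at day 10. At unadjusted p under 0.05, 0 were higher and 3 lower, and DESeq2 called 1 lower, beside the 11.9% and 2.05% of all genes that were lower. Fkbp4, which encodes the co-chaperone that competes with Fkbp5 and favours hormone binding, averaged 178 ± 25.2 CPM in Fh1-/- kidneys and 266 ± 22.9 CPM in Fh1+/+ kidneys at day 10 (SD, n = 5 each). Its log2 fold change of −0.59 did not pass (edgeR adjusted p = 0.0382), and between the days in Fh1-/- kidneys it fell by 0.86 (0.00858). In Fh1+/+ kidneys Fkbp4 was at −0.16 between the days (0.949). Hsd11b1, the enzyme that makes active hormone from its inert form, was at −1.89 (0.0960), Hsd11b2, which inactivates it in the distal nephron, at −0.46 (0.238), the mineralocorticoid receptor gene Nr3c2 at −0.61 (0.179) and the co-chaperone gene Stip1 at −0.18 (0.205). Without Fh1-/- replicates 1 and 3 Nr3c2 was at −0.27 and Hsd11b2 at −0.12.

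The FoxO list had 14 of 20 genes above 0 at day 10, a median of 0.29, with 4 higher and 0 lower at unadjusted p under 0.05 and 3 higher by DESeq2, and 4 of 20 is near the 15.1% of all genes. Its genes with the lowest p were Bnip3, a gene of mitochondrial clearance, at 0.93 (edgeR adjusted p = 0.0379), Gadd45a, a stress gene, at 2.05 (0.0497), the insulin receptor substrate gene Irs2 at 1.70 (0.0594) and Trib1 at 1.33 (0.113). Foxo1 itself was at 0.32 (0.280). Without Fh1-/- replicates 1 and 3 Gadd45a was at 0.93, Trib1 at 0.30 and Irs2 at 2.20. The PPAR list had 20 of 24 tested genes above 0, a median of 0.52, with 13 higher and 0 lower at unadjusted p under 0.05 and 4 higher by DESeq2 (15.1%, 11.9% and 3.49% of all genes). Ppara, which encodes the PPAR of liver and kidney, was at 0.57 (edgeR adjusted p = 0.0755), and the fatty acid carrier gene Slc25a20 at 0.85 (0.0722). Between the days in Fh1-/- kidneys Cyp4a10, which hydroxylates fatty acids, rose by 1.89 (0.00980) and Txnip, a glucose-responsive gene of the glucocorticoid list, by 1.58 (0.00858). In Fh1+/+ kidneys they were at 0.50 and 0.58 between the days (edgeR adjusted p = 0.949 each).

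Among partners of Pnpla2 at the lipid droplet, 10 of 11 were above 0 at day 10, with a median of 1.11 that was 0.35 without Fh1-/- replicates 1 and 3. At unadjusted p under 0.05, 6 were higher and 1 lower, and DESeq2 called 5 higher (15.1%, 11.9% and 3.49% of all genes). The droplet coat genes Plin2, Plin3, Plin4 and Plin5 were at 3.85 (edgeR adjusted p = 0.0501), 1.11 (0.0659), 2.17 (0.0382) and 1.32 (0.0410). G0s2, the inhibitor of the lipase, was at 1.85 (0.124) and spread over 9.76 to 186 CPM in Fh1-/- kidneys, against 17.8 to 28.1 CPM in Fh1+/+ kidneys. Abhd5, its co-activator, was at 0.19 (0.400). Without Fh1-/- replicates 1 and 3 Plin2 was at 1.30, Plin3 at 0.62, G0s2 at 0.14 and Abhd5 at 0.08.

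The genes of pyruvate dehydrogenase and of the other kinases lay mostly under 0, on the other side from Pdk4. Of these 13 genes 1 was above 0 at day 10, the median was −0.22, 0 were higher and 3 lower at unadjusted p under 0.05, and DESeq2 called 2 lower (15.1%, 11.9% and 2.05% of all genes). Pdk3 averaged 43.7 ± 4.76 CPM in Fh1-/- kidneys and 71.5 ± 14.8 CPM in Fh1+/+ kidneys at day 10 (−0.73, edgeR adjusted p = 0.0379), whereas Pdk1 was at −0.21 (0.461) and Pdk2 at −0.10 (0.831), both above 0 without Fh1-/- replicates 1 and 3 (0.02 and 0.28). Mpc2, a subunit of the mitochondrial pyruvate carrier, was at −0.71 (0.0441), and Dlat and Dld, subunits of the dehydrogenase complex, at −0.40 (0.111) and −0.22 (0.216). Pdk4 was higher in every Fh1-/- library than in any Fh1+/+ library at day 10, as were 4.42% of all genes. It was chosen for its difference in these libraries, so nothing is read from its contrast with the other kinases. Pdk3 lay at 38.4 to 50.7 CPM in Fh1-/- kidneys and 57.0 to 92.9 CPM in Fh1+/+ kidneys at day 10.

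Of 11 genes around Sgk1 and the sodium channel, 7 were above 0 at day 10, with a median of 0.24, 2 higher and 0 lower at unadjusted p under 0.05 and 0 by DESeq2, and 2 of 11 is near the 15.1% of all genes. Nedd4l, the ubiquitin ligase that Sgk1 restrains, was at 0.51 (edgeR adjusted p = 0.0895), Ndrg2, a substrate of the kinase, at 0.34 (0.159), the channel subunit gene Scnn1a at 0.41 (0.220) and Sgk2 at −0.29 (0.215). Of 16 clock genes, which glucocorticoids and feeding can reset, 9 were above 0 at day 10, with 6 higher and 4 lower at unadjusted p under 0.05 and 2 higher and 1 lower by DESeq2 (15.1%, 11.9%, 3.49% and 2.05% of all genes). Their median of 0.33 was 0.05 without Fh1-/- replicates 1 and 3. The activator Arntl was at 0.88 (0.0715), Bhlhe40 at 1.39 (0.0766, and 0.58 without those replicates), the repressor Nr1d1 at −0.44 (0.105) and the output factor Dbp at −1.02 (0.0391). Between the days in Fh1-/- kidneys Dbp fell by 1.34 (0.00624) and Arntl rose by 1.48 (0.0143). Both went the same way between the days in Fh1+/+ kidneys, Dbp at −0.46 and Arntl at 0.80 (edgeR adjusted p = 0.949 each).

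**Figure D4:**
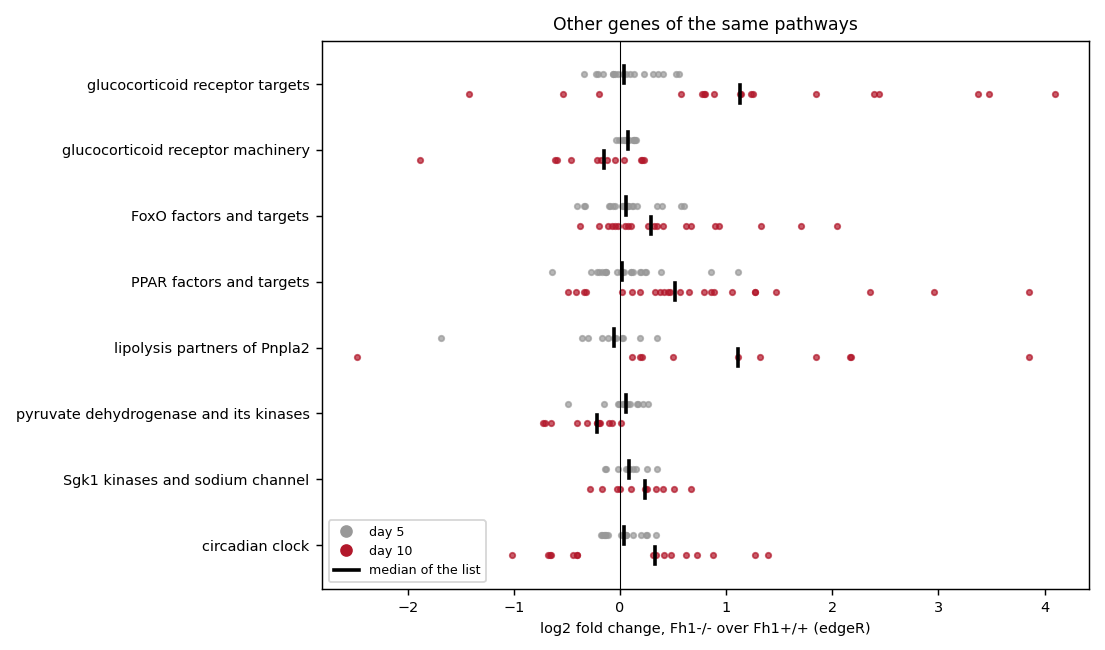
Log2 fold change of Fh1-/- over Fh1+/+ kidneys for every tested gene of the 8 pathway lists, at day 5 (grey) and day 10 (red), with a bar at each list's median. At day 10 the medians were 1.13 for the glucocorticoid receptor targets and −0.22 for pyruvate dehydrogenase and its kinases, and at day 5 all 8 lay between −0.05 and 0.09.

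At day 5 the 8 list medians lay between −0.05 and 0.09, close to the median of all genes of −0.0063. EdgeR called 0 list genes at day 5, and DESeq2 called 1, lower, in the lipolysis list. Between the days in Fh1-/- kidneys the medians were 1.55 for the glucocorticoid receptor targets, 1.18 for the lipolysis list, 0.45 for the PPAR list, 0.38 for the FoxO list, −0.25 for the receptor machinery and −0.35 for pyruvate dehydrogenase and its kinases, beside 0.01 for all genes. Between the days in Fh1+/+ kidneys they were 0.35 for the glucocorticoid receptor targets and −0.08 to 0.12 for the other 7.

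The last question was whether the genes varied together where Fh1 was intact. Over the 10 Fh1+/+ libraries the log2 CPM of Fkbp5 was set against that of each of the other 9 genes, 9 relations in all, with permutation p-values from 100000 resamples, two-sided and adjusted by Benjamini-Hochberg over the 9. None passed at 0.05. The largest Pearson relation was that of Klf15, with Pearson's r of 0.75 (permutation p = 0.0126, adjusted 0.113) and Spearman's rho of 0.64 (permutation p = 0.0535, adjusted 0.241), and r was 0.70 without the 2 libraries farthest from the median of Fkbp5. Within day 5 and within day 10 it was 0.45 and 0.86 (5 libraries each). For Pnpla2 r was 0.70 (permutation p = 0.0273, adjusted 0.123), but −0.05 within day 5 and 0.83 within day 10, and for the receptor gene Nr3c1 it was −0.63 (permutation p = 0.0490, adjusted 0.127), −0.55 within day 5 and −0.71 within day 10. Nr3c1 had the largest Spearman relation, with a rho of −0.68 (permutation p = 0.0346, adjusted 0.241). Klf9 went to 0.05 without those 2 libraries, against 0.59 with them, and Pdk4 to −0.16, against 0.28 with them, so both rested on Fh1+/+ day 10 replicates 2 and 3. Angptl4, Zbtb16, Tsc22d3 and Sgk1 gave 0.60, 0.52, 0.52 and 0.11 over the 10 libraries.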

How the data were processed

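Kidneys were snap-frozen and polyadenylated RNA was sequenced from stranded TruSeq libraries. Per the submitters' processing notes and the study's methods, reads were trimmed with cutadapt and aligned with STAR 2.6.0c to GRCm38, and the authors deposited raw counts per gene, made with Rsubread and GENCODE genes. Whether counting used strand was not given in the sources used here. The replicate numbers name libraries and no label ties them to animals, so the p-values cover the spread from library to library only, which may in part be technical. Counting depth limits the low genes most, above all Zbtb16. No pair of libraries within a group agreed within sampling noise (chi-square per degree of freedom 7.84 to 397 over 40 pairs).

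Counts were filtered (filterByExpr), scaled by TMM and tested with edgeR 4.0.16 (quasi-likelihood, R 4.3.3) within the 2 groups compared, and log2 CPM used a prior count of 2. Calls used the adjusted p of 0.01 and the log2 fold change of 0.58 of the study. Alternatives were DESeq2 1.42.0, RLE and upper quartile factors, no filter or 1 CPM in 5 libraries, an adjusted p of 0.05, voom with quality weights (limma 3.58.1), 1 fit of all 20 libraries, a block for the replicate number, a covariate for the Y-linked level and leaving out libraries. Fits within libraries that held or lacked Y-linked transcripts (a sum over or under 10 CPM) were added after the data were seen. All 10 members were named, with up to 4 genes of each pathway list by lowest unadjusted p at day 10, any called list gene and 10 fixed partners, some of which are not reported here. The members and lists were chosen with earlier results of these data known. The fitting scripts were tested on simulated data with known changes. In the day 10 simulation the edgeR call recovered 14.9% of genes changed 2-fold and 69.7% of those changed 4-fold, with 0 false calls. DESeq2 recovered 44.8% and 87.9%, with 11 false calls. A gene that was not called may therefore still differ. Columns mapped to no sample numbered 0.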

Additional observations from a re-analysis of the deposited data

How the results depend on the processing

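At day 10, where edgeR called 1 member, the count was 5 at an adjusted p of 0.05 with no fold threshold, 5 with DESeq2, 5 in one fit of all 20 libraries, and 0 with the filter of 1 CPM in 5 libraries, without both Fh1-/- day 10 replicates 1 and 3, and within libraries that held or lacked Y-linked transcripts. Leaving out each replicate in turn gave 0 to 3. At day 5 the count of 0 was 1 with DESeq2 and 0 in every fit with a replicate left out. Between the days in Fh1-/- kidneys the count of 4 was 2 without both replicates 1 and 3, 0 within libraries lacking Y-linked transcripts and 0 to 5 with each replicate left out, and in Fh1+/+ kidneys it stayed at 0. For the difference between days the count of 0 was 4 at an adjusted p of 0.05, 4 with DESeq2, 1 with no filter, 2 with the 1 CPM filter, 1 with voom, 2 with the Y-linked covariate and 0 to 4 with each replicate left out. With the replicate number as a block, the counts were 0 at day 10 and 0 between the days in Fh1-/- kidneys. The numbers do not pair the libraries: the correlation of same-numbered deviations was −0.51 to 0.33 over 20 comparisons. The sign turned for genes near 0. Tsc22d3 at day 10 was at 0.31 with voom, 0.44 without both replicates and 0.24 within libraries with Y-linked transcripts, and −0.53 to 0.22 with each replicate left out. At day 5 it was at −0.023 with the Y-linked covariate and −0.050 to 0.21 with each replicate left out. In Fh1-/- kidneys between days it was at −0.12 with the replicate block, −0.034 within libraries lacking Y-linked transcripts and −0.33 to 0.34 with each left out, and in Fh1+/+ kidneys −0.0086 to 0.46. Its difference between days was 0.33 with voom, 0.37 without both replicates and −0.58 to 0.15 with each left out. Klf15 was at 0.19 (day 10), 0.17 (days in Fh1-/- kidneys) and 0.0071 (difference between days) without both replicates, and at 0.038 (day 10) and 0.26 (days in Fh1-/- kidneys) within libraries with Y-linked transcripts. Nr3c1 at day 5 was at 0.0014 within those libraries. With each replicate left out, Sgk1 at day 5 was at −0.65 to 0.064 and Angptl4 between days in Fh1+/+ kidneys at −0.031 to 0.56. The relation of Fkbp5 to Pdk4 was −0.16 without the 2 farthest libraries. Over the other planned settings at day 10, Fkbp5 stayed at 2.34 to 2.50, Pnpla2 at 1.05 to 1.27, Pdk4 at 2.45 to 3.40, Zbtb16 at 2.27 to 2.66 (adjusted p 4.38e-05 to 0.123), Angptl4 at 1.84 to 2.42 (0.000172 to 0.0808) and Nr3c1 at −0.49 to −0.35 (0.00898 to 0.127). Day 5 could not be fitted within libraries lacking Y-linked transcripts, where Fh1+/+ kidneys had 1 library. The causes of these shifts were not tested.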
